A study of Mus musculus with 19 samples.

Results

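The oxidative phosphorylation (OXPHOS) genes comprised 101 protein-coding genes of the 56941 in the deposited tables, taken by symbol alone: 88 encoded in the nucleus and 13 on the mitochondrial chromosome. The symbols were those of complex I (Nduf), complex II (Sdh), complex III (Uqcr and mt-Cytb), complex IV (Cox4 to Cox8 and mt-Co) and complex V, the ATP synthase (Atp5 and mt-Atp). By role, the nuclear set held 36 genes of complex I, 4 of complex II, 8 of complex III, 20 of complex IV, 17 of complex V and 3 annotated copies, and the mitochondrial set held 7, 0, 1, 3 and 2. After the filter on low counts, 83 nuclear and all 13 mitochondrial genes could be tested.

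Oxidative phosphorylation passes electrons from NADH and succinate along complexes I to IV to oxygen, and complex V uses the resulting proton gradient to make ATP. Complexes I, III, IV and V are built from both genomes: the mitochondrial chromosome encodes a few core membrane subunits, transcribed together from long polycistronic precursors, while all other subunits, among them every subunit of complex II, are made from nuclear genes. Alveolar macrophages, which patrol the airspace, are known for relying on mitochondrial respiration.

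RNA was sequenced from cells washed from the airspaces of female mice aged 7 to 8 weeks, in 4 groups with 1 library per mouse. Wild type (C57Bl/6J) and ICAM-1 null mice were either naive (n = 4 and n = 5) or had aspirated 100 µL of pHrodo-labelled Staphylococcus aureus bioparticles at 2.27 mg/mL 1 h before lavage (n = 5 and n = 5). ICAM-1 is an adhesion molecule for leukocyte integrins. No source used here gives the breeding background of the null line, so the loss of ICAM-1 and other differences between the lines cannot be told apart. No sort is described, and in such bulk RNA fewer cells of a type and less RNA per cell cannot be told apart.

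Libraries held 32.8 to 80.3 M estimated counts. Wild type naive libraries 1, 2 and 3 were the shallowest of all 19 at 32.8, 37.0 and 41.0 M, and wild type naive library 4 was the deepest of all at 80.3 M. Icam1 stood at 72.8 to 96.5 CPM (counts scaled to library size) in naive wild type and 5.81 to 13.6 in naive null libraries, and at 1047 to 1490 and 14.3 to 19.7 after exposure. TPM is a level per transcript length and library size. Summed over 12 alveolar macrophage markers it was 20122 to 23766 in naive and 23856 to 29412 in exposed wild type libraries, without overlap. In null libraries this sum was 23359 to 26899 and then 25706 to 30680, with overlap. The median log2 fold changes of these markers were 0.35 and 0.14 relative to the typical gene, the scale explained below. With only library totals scaled they were -0.01 and -0.20. Epithelial markers summed to 1640 to 2113 TPM in naive and 2109 to 4235 TPM in exposed wild type libraries, and to 1293 to 1447 and 1324 to 1975 TPM in null ones. Of the 16 epithelial markers, 12 rose and 0 fell in wild type mice and 11 rose and 1 fell in null mice. Beside these and the marker counts that follow, 20.1% of all genes tested rose and 20.2% fell in wild type mice. In null mice these shares were 21.4% and 23.4%. Red cell markers summed to 134 to 410 and 370 to 2399 TPM in wild type and to 97.7 to 352 and 129 to 351 TPM in null libraries, and 5 of 5 tested rose in wild type mice and 0 in null mice. Neutrophil markers summed to 66.9 to 94.1 and 86.0 to 117 TPM in wild type and to 170.05 to 185 and 125 to 188 TPM in null libraries, so the genotypes did not overlap in either state. Of 7 tested, 4 rose and 1 fell in wild type mice and 2 rose and 1 fell in null mice, with median log2 fold changes of 0.98 and -0.09. Lymphocyte markers summed to 186 to 242 and 214 to 284 TPM in wild type and to 153 to 208 and 164 to 208 TPM in null libraries. Of 9 tested, 5 and 3 rose and 0 fell, with medians of 0.56 and 0.40.

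Levels between genes are given as TPM. Fold changes are log2 differences of counts scaled by the trimmed mean of M-values (TMM), and values per library are CPM on that same scale. The words rose, fell, higher and lower mark an edgeR adjusted p under 0.05. The median fold change over all 20501 genes tested was 0.02 in wild type and 0.02 in null mice on this scale, and -0.34 and -0.32 when only library totals were scaled. Every change below is therefore relative to the typical gene.

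The transcripts of the mitochondrial genome were far more abundant than those of the nuclear genes. Mean TPM over all libraries had a median of 4907 over the 13 mitochondrial genes and 131 over the 88 nuclear genes. The highest mitochondrial level was that of mt-Co1, the catalytic subunit of complex IV, at 15682 ± 1734 TPM in naive wild type mice (SD, n = 4). The lowest was that of mt-Nd3, a membrane subunit of complex I, at 908 ± 64 TPM. Among nuclear genes Cox4i1, the common form of complex IV subunit 4, was highest at 1213 ± 66 TPM, followed over all libraries by Cox6a1, Atp5b, Atp5g3 and Cox8a. Of the 88 nuclear genes, 54 exceeded 100 TPM, 22 lay between 30 and 100 TPM and 12 were below 30 TPM.

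The low group held isoforms known from other tissues. Cox7a1, Cox6a2 and Cox8b are the forms of heart and skeletal muscle, Cox4i2 is the form of lung and hypoxic cells, and Cox7b2 and Cox8c are known from testis. In naive wild type mice Cox7a1 stood at 25.5 ± 4.6 TPM, Cox6a2 at 1.94 ± 0.62 TPM and Cox4i2 at 0.417 ± 0.37 TPM (SD, n = 4). Cox7b2 and Cox8c were at 0 counts in all 19 libraries and Cox8b did not pass the filter. Ndufa4l2, which can replace Ndufa4 in complex IV in hypoxia, had a mean of 0.226 TPM over all libraries against 274 TPM for Ndufa4. The exception was Cox6b2, known as the testis form of complex IV subunit 6B, at 240 ± 23 TPM in naive wild type mice beside 431 ± 51 TPM for its general form Cox6b1.

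**Figure D1:**
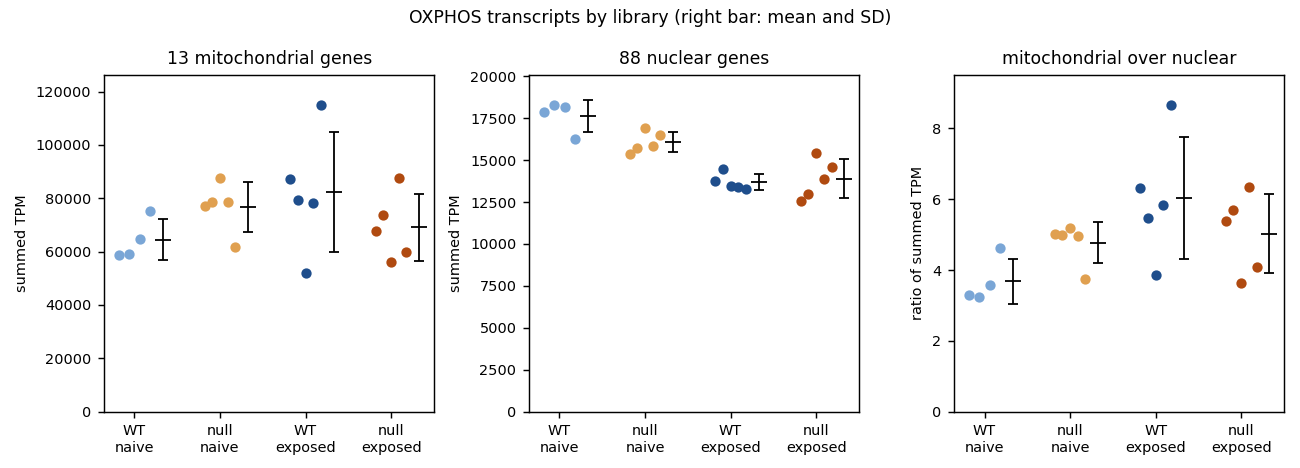
Summed TPM of the 13 mitochondrial genes (left) and the 88 nuclear genes (middle), and their ratio (right), each point 1 library and the bar beside each group its mean and SD. Wild type exposed libraries spread from 52113 to 114918 TPM in the mitochondrial sum, from below to above every library of the other groups, while nuclear sums were lower in all wild type exposed than in all wild type naive libraries.

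The mitochondrial genes rose together in exposed wild type mice and no member of them passed the test in null mice. In wild type mice 13 of 13 rose and 0 fell, beside 20.1% of all genes tested that rose and 20.2% that fell. These genes are transcribed together and share their libraries, so they are not 13 independent results. Their median log2 fold change was 0.73 and their range 0.59 to 1.00. In null mice 0 rose and 0 fell, beside 21.4% and 23.4% of all genes, with a median of 0.17 and a range of -0.03 to 0.35. One gene, mt-Co2, had an unadjusted p under 0.05 (log2 fold change 0.35, adjusted p = 0.096), and DESeq2 also called 0 in null mice. Scaled by library totals only, the null median was -0.17 and the wild type median 0.36. The interaction, the null response minus the wild type response, had a median of -0.59. It was not called for any mitochondrial gene (smallest edgeR adjusted p = 0.27), beside 0.18% and 0.151% of all genes called higher and lower. Its unadjusted edgeR p was under 0.05 for 8 of 13. The share of all genes at that unadjusted threshold was not counted, so this count has nothing to be set beside.

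The gene with the widest change was mt-Nd2, a core membrane subunit of complex I (log2 fold change 1.00, SE 0.19, adjusted p = 0.00027). It stood at 1390.1, 1333, 1586 and 1815 CPM in the naive wild type libraries and at 3203, 2673, 1817, 2835 and 4823 CPM in the exposed ones. Exposed library 3 lay just above the highest naive library, and the groups did not overlap in CPM. In TPM they overlapped, with exposed library 3 at 3230 TPM below naive libraries 3 and 4 at 3381 and 3878 TPM. In null mice the values were 1999.7, 2005, 2326, 1966 and 1507 CPM before and 2157, 2500.3, 1823, 2808 and 2069 CPM after exposure, and the groups overlapped (log2 fold change 0.21, SE 0.18, adjusted p = 0.36).

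For the remaining 12 genes the wild type groups already overlapped in CPM, each time through exposed library 3. The catalytic subunit mt-Co1 stood at 9988, 9937, 10989.8 and 12621 CPM in naive and at 19585, 16073, 10803, 16919.9 and 26513 CPM in exposed wild type libraries (log2 fold change 0.72, SE 0.18, adjusted p = 0.003). Cytochrome b, encoded by mt-Cytb and the only mitochondrial subunit of complex III, stood at 3375, 3338, 3808 and 4434 CPM and at 7204, 5897, 3918, 6368 and 10135 CPM (log2 fold change 0.84, SE 0.19, adjusted p = 0.0012). In both genes exposed library 5 was highest and exposed library 3 lay within the naive range. The other complex I subunits mt-Nd1, mt-Nd3, mt-Nd4, mt-Nd4l, mt-Nd5 and mt-Nd6 rose by 0.59 to 0.86 on the log2 scale, mt-Co2 and mt-Co3 of complex IV by 0.79 and 0.73, and mt-Atp6 and mt-Atp8 of complex V by 0.60 and 0.68. The transcripts mt-Atp8 and mt-Atp6, mt-Nd4l and mt-Nd4, and mt-Nd5 and mt-Nd6 overlap in the annotation and may share reads.

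These calls depended on the libraries and terms in the fit. Without the 3 shallowest wild type naive libraries, which leaves 1 library that is assumed to vary like the other groups, 0 of 13 were called and the median was 0.49, while the share of all genes called higher went to 8.09% and lower to 9.81%. That fit changes depth and group size together, and the library it leaves, number 4, had the highest mitochondrial sum of naive wild type mice (75176 TPM), so depth, that library and the number of libraries cannot be told apart. With the epithelial and red cell marker levels as covariates, 0 of 13 were called and the median was -0.06, and the shares of all genes were 9.47% and 7.73%. Both marker sums overlapped little between naive and exposed wild type libraries, so that fit cannot tell marker levels and exposure apart. Scaled by library totals only, 5 of 13 were called higher, beside 10.9% of all genes, and on log2(TPM + 1) with limma 1 of 13 was. Exposed wild type libraries 1 to 5 had mitochondrial sums of 87148, 79253, 52113, 78390 and 114918 TPM. Their epithelial sums were 2109, 2588, 2205, 2825 and 4235 TPM and their red cell sums 828, 2399, 370, 2275 and 1084 TPM. Library 5 was highest in both the mitochondrial and the epithelial sum, and library 3 was lowest in both the mitochondrial and the red cell sum. Library 1, with the second highest mitochondrial sum, had the lowest epithelial sum, and the red cell sums were highest in libraries 2 and 4. The part of neutrophil and lymphocyte markers in the mitochondrial result was not tested.

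**Figure D2:**
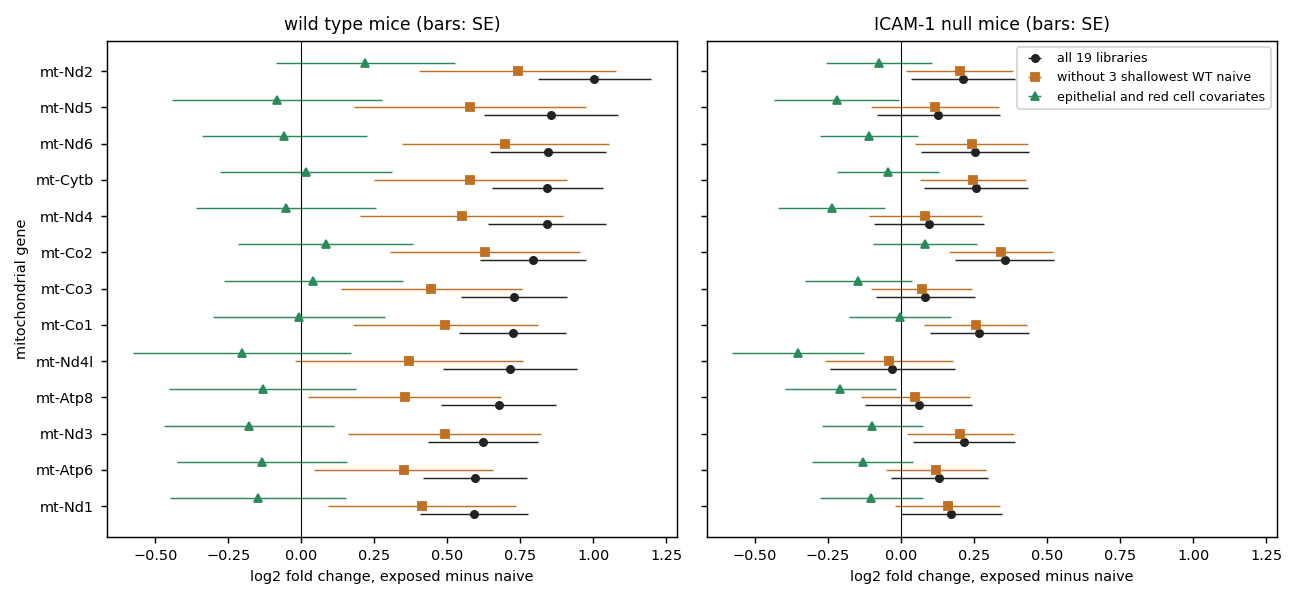
Log2 fold change after exposure of the 13 mitochondrial genes (points, with SE) in wild type (left) and null mice (right), from 3 fits. In wild type mice all 13 lie above 0 with all 19 libraries (0.59 to 1.00), nearer 0 without the shallowest naive libraries and on both sides of 0 with marker covariates.

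The ratio of mitochondrial to nuclear summed TPM, which needs no scaling between libraries, showed the same overlap. It was 3.29, 3.23, 3.57 and 4.62 in naive wild type libraries and 6.33, 5.47, 3.87, 5.84 and 8.66 in exposed ones. It was 5.01, 4.995, 5.19, 4.97 and 3.74 in naive null libraries and 5.39, 5.69, 3.64, 6.33 and 4.10 in exposed ones. In all, 4 of the 5 naive null libraries exceeded every naive wild type library, and in both genotypes the exposed and naive libraries overlapped. The mitochondrial ribosomal RNA mt-Rnr1, the small subunit RNA transcribed from the same chromosome, rose in wild type (log2 fold change 1.25, SE 0.18, adjusted p = 6e-06) and in null mice (0.79, SE 0.16, adjusted p = 0.00037). The large subunit RNA mt-Rnr2 rose by 1.02 and 0.62. Both ribosomal RNAs together came to 1.57 to 1.71% of the summed mitochondrial TPM in naive and 1.97 to 2.16% in exposed wild type libraries, and to 1.48 to 1.88% and 2.23 to 2.46% in null ones, with no overlap between naive and exposed in either genotype. The libraries were selected for poly(A).

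Of the nuclear genes, 4 of 83 rose and 7 fell in wild type mice after exposure, with a median log2 fold change of -0.02, 38 values above 0 and 45 below. In null mice 17 rose and 5 fell, with a median of 0.11, 60 values above 0 and 23 below. These are 4.82% and 8.43% in wild type and 20.5% and 6.02% in null mice, beside the shares of all genes given above. In the interaction 9 of 83 had an unadjusted edgeR p under 0.05, a threshold at which all genes were not counted. No nuclear member was called in it (0 of 83, smallest edgeR adjusted p = 0.23, median 0.13, 0 called by DESeq2). The larger count of rises in null mice is therefore not shown to be a difference between genotypes.

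Relative to the whole library the picture differed. Summed nuclear TPM was 17879, 18278, 18142 and 16257 in naive wild type libraries and 13768, 14489, 13480.0, 13424 and 13275 in exposed ones, with no overlap. In null mice it was 15389, 15743, 16909, 15837 and 16526 and then 12546, 12993, 15411, 13854 and 14600.0, and exposed library 3 overlapped the lowest naive library. Scaled by library totals only, 68 of 83 nuclear genes were called lower in wild type and 42 in null mice, with medians of -0.38 and -0.22, beside -0.34 and -0.32 for all genes, and 1 and 3 were called higher. Of all genes, 39.1% and 39.7% were called lower with that scaling and 10.9% and 10.8% higher. Of the nuclear rises in the comparisons below, those of Cox4i2 in wild type mice and of Atp5k, Ndufb1, Atp5md and Cox5b-ps in null mice kept values of 0.21 or more with that scaling, and all others lay between -0.20 and 0.03, so their direction holds only relative to the typical gene. The falls named below were deeper with it.

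**Figure D3:**
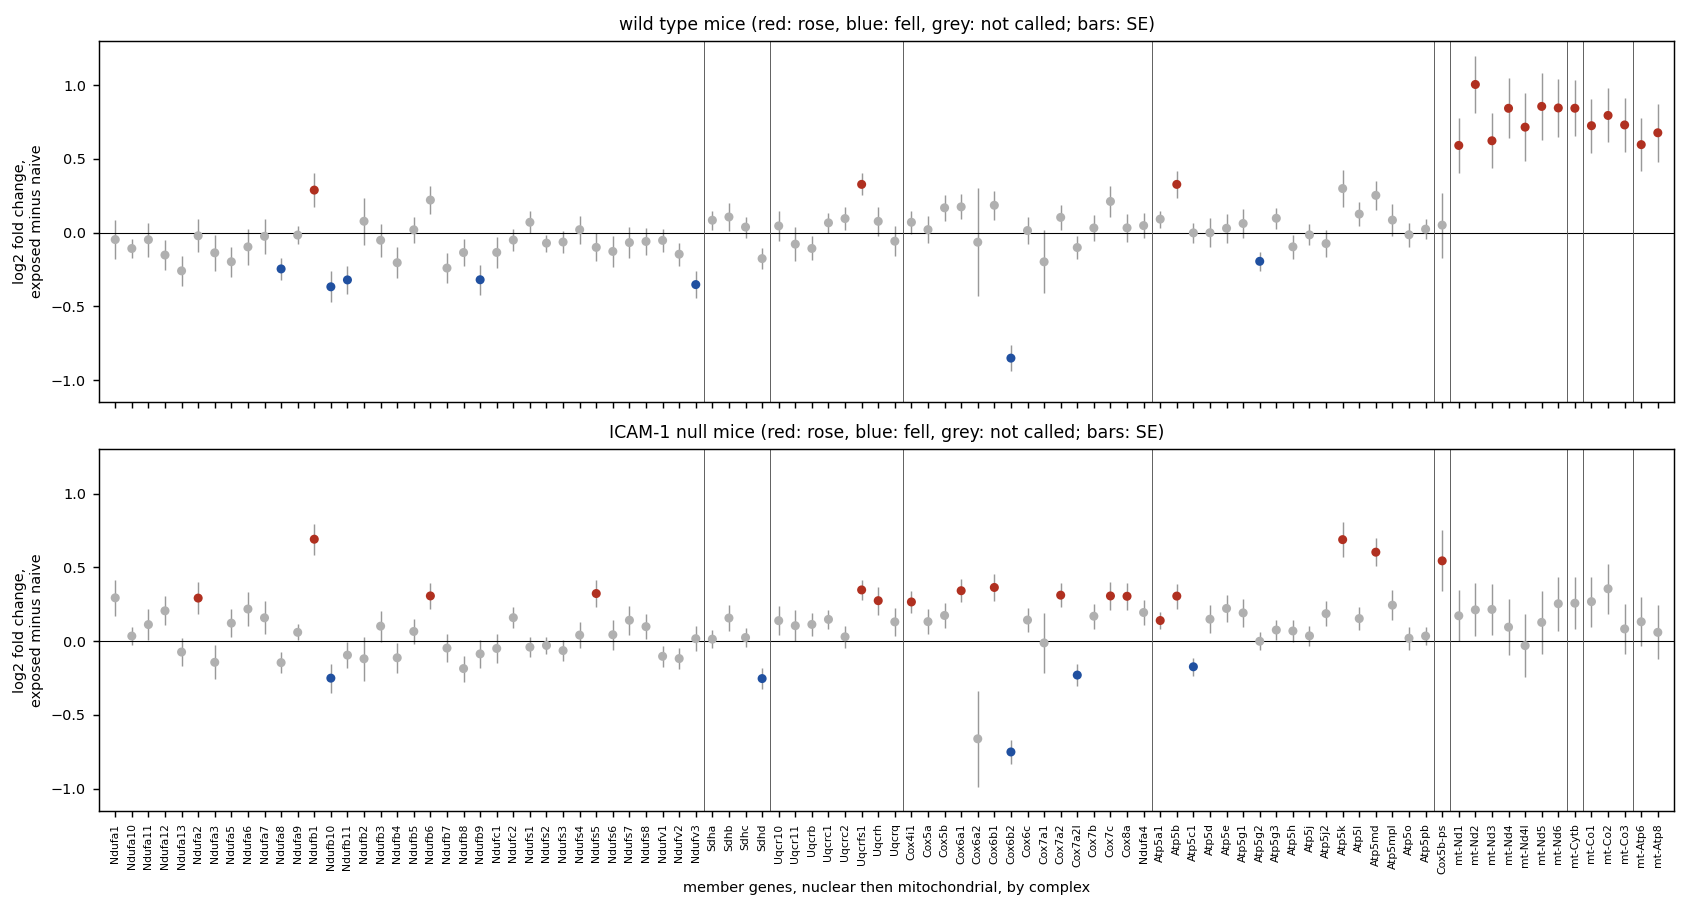
Log2 fold change after exposure (points, with SE) of 94 tested members in wild type (top) and null mice (bottom), by complex with vertical lines between complexes. Cox4i2 and Ndufa4l2, very low and with wide SE, are left out. Red and blue points passed the test; the mitochondrial genes at the right are red in wild type mice only, and Cox6b2 is the lowest point in both.

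Complex I is the NADH dehydrogenase. Of its 29 accessory subunits 1 rose and 5 fell in wild type mice, with a median of -0.11, and 4 rose and 1 fell in null mice, with a median of 0.04, beside 20.1% and 20.2% of all genes in wild type and 21.4% and 23.4% in null mice. None of the 7 nuclear core subunits, which form the arm that holds the flavin and iron-sulfur clusters, was called in either (0 of 7 with an unadjusted p under 0.05). The difference between core and accessory subunits was not tested. Ndufs7 had the highest level of these at 223 ± 7.3 TPM in naive wild type mice (SD, n = 4), with log2 fold changes of -0.07 and 0.14, and Ndufv2 the smallest adjusted p, 0.15 (edgeR).

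Ndufb10, an accessory subunit of the membrane arm and the most abundant nuclear subunit of complex I, fell in both genotypes. It stood at 105, 107, 113 and 102 CPM in naive and at 89.5, 89.0, 66.6, 77.7 and 91.5 CPM in exposed wild type libraries (log2 fold change -0.37, SE 0.10, adjusted p = 0.0071). All exposed wild type libraries lay below all naive ones, while the null groups overlapped (log2 fold change -0.25, SE 0.10, adjusted p = 0.043). Ndufv3, a small accessory subunit of the NADH-binding module, fell by 0.35, Ndufb11 by 0.32, Ndufb9 by 0.32 and Ndufa8 by 0.25 in wild type mice, and none of these was called in null mice. Without the 3 shallowest wild type naive libraries 1 nuclear member was called lower in wild type mice.

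Ndufb1, another membrane-arm subunit, rose, although its wild type value was -0.08 with library totals. It stood at 30.4, 27.0, 32.1 and 27.5 CPM in naive and at 38.6, 35.2, 28.3, 32.9 and 43.7 CPM in exposed wild type libraries (log2 fold change 0.29, SE 0.11, adjusted p = 0.047). Null libraries stood at 24.1, 27.6, 31.3, 27.1 and 27.1 CPM and then at 39.7, 44.1, 47.1, 38.9 and 51.4 CPM (log2 fold change 0.69, SE 0.11, adjusted p = 1.4e-05). The null groups did not overlap in CPM, and the wild type groups did through exposed library 3. In TPM the null groups overlapped as well, with exposed library 4 at 81.9 TPM below naive library 3 at 83.3 TPM. Ndufb1 overlaps Cpsf2 on the opposite strand, whose level was 44.7 to 53.1 CPM in naive and 43.2 to 52.6 CPM in exposed null libraries. In null mice Ndufb6, Ndufa2 and Ndufs5 also rose, by 0.31, 0.29 and 0.32, and had values of -0.03, -0.05 and -0.02 with library totals.

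Complex II, succinate dehydrogenase, had 1 call among its 4 genes in the exposures. Sdhd, a membrane anchor, fell in null mice (log2 fold change -0.25, SE 0.07, adjusted p = 0.0045), with a value of -0.18 and an adjusted p of 0.058 in wild type mice. Sdha, the flavoprotein, had the highest level at 203 ± 10 TPM in naive wild type mice (SD, n = 4) and log2 fold changes of 0.08 and 0.01.

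In complex III, which passes electrons from ubiquinol to cytochrome c, the Rieske iron-sulfur protein Uqcrfs1 rose in both genotypes relative to the typical gene, with values of -0.03 and 0.0082 under library totals. It stood at 77.1, 72.6, 92.2 and 76.0 CPM in naive and at 101, 98.6, 91.4, 98.4 and 109 CPM in exposed wild type libraries (log2 fold change 0.33, SE 0.07, adjusted p = 0.0013). Exposed library 3 and naive library 3 overlapped by a small margin. Null libraries stood at 84.2, 81.4, 92.5, 86.3 and 81.9 CPM and then at 96.8, 109, 113, 109 and 114 CPM, with no overlap (log2 fold change 0.35, SE 0.07, adjusted p = 0.00033). Among all genes 20.1% rose and 20.2% fell in wild type and 21.4% and 23.4% in null mice. Of the 7 accessory subunits of complex III 0 were called in wild type mice and 1, the hinge protein Uqcrh, rose in null mice by 0.27 (-0.06 with library totals). Uqcrb, the most abundant at 396 ± 19 TPM in naive wild type mice, had values of -0.11 and 0.11.

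Complex IV, cytochrome c oxidase, held the nuclear gene with the largest fall. Cox6b2 stood at 57.3, 54.8, 59.2 and 47.8 CPM in naive and at 30.8, 29.9, 31.1, 29.4 and 30.6 CPM in exposed wild type libraries (log2 fold change -0.85, SE 0.09, adjusted p = 9.1e-08). In null mice it stood at 61.2, 53.1, 76.0, 60.6 and 62.1 CPM and then at 36.4, 34.7, 41.0, 38.1 and 35.7 CPM (log2 fold change -0.75, SE 0.08, adjusted p = 1.8e-07). Every exposed library lay below every naive library in both genotypes.

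Its general form Cox6b1 was not called lower in either genotype. It stood at 128, 127, 122 and 98.6 CPM in naive and 147, 141, 109, 138 and 140.4 CPM in exposed wild type libraries, which overlapped and did not pass the test. Null values went from 93.8, 107, 119, 105 and 102 to 116, 126, 156, 139 and 143 CPM, also with overlap (log2 fold change 0.36, SE 0.09, adjusted p = 0.0032, and 0.03 with library totals). The ratio of Cox6b2 to Cox6b1 in TPM, which does not depend on scaling between libraries, was 0.536, 0.522, 0.593 and 0.584 in naive and 0.258, 0.254, 0.345, 0.261 and 0.261 in exposed wild type libraries. In null mice it was 0.790, 0.607, 0.780, 0.699 and 0.745 before and 0.395, 0.337, 0.315, 0.339 and 0.314 after exposure. In both genotypes no exposed library reached the lowest naive ratio.

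The sequence upstream of the start of each form is shown because both encode the same subunit and moved apart. They are 250 bases 5′ of the start site from RefSeq on GRCm38.p6, an older build than that of the deposited tables, both on the minus strand, Cox6b2 at chr7:4753095-4753344 and Cox6b1 at chr7:30626115-30626364. Neither held a core of the nuclear respiratory factor NRF1 (GCGCANGC), of GABP (CCGGAAGT) or of YY1 (AAGATGGC), searched on both strands.
Cox6b2: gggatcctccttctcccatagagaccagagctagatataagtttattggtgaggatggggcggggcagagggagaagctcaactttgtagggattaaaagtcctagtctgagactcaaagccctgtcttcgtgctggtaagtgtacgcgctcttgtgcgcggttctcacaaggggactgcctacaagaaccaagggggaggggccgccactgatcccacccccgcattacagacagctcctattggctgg
Cox6b1: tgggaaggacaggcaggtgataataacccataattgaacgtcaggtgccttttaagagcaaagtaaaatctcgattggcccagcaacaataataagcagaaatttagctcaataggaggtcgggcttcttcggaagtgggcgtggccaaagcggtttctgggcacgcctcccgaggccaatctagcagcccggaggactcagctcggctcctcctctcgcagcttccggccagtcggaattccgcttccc

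Over windows of 300 bases, from 250 before to 50 after the start, 69 nuclear members matched a RefSeq promoter. The NRF1 core was in 23 of them (33.33%), against 11.16% of 27025 gene symbols, the YY1 core in 10 (14.49%, against 3.19%) and the GABP core in 5 (7.25%, against 4.31%). The median log2 fold change in wild type mice was -0.07 for the 23 tested members with an NRF1 core and -0.01 for the 44 without, and in null mice 0.10 and 0.12. These matches describe letters in a window and not binding.

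**Figure D4:**
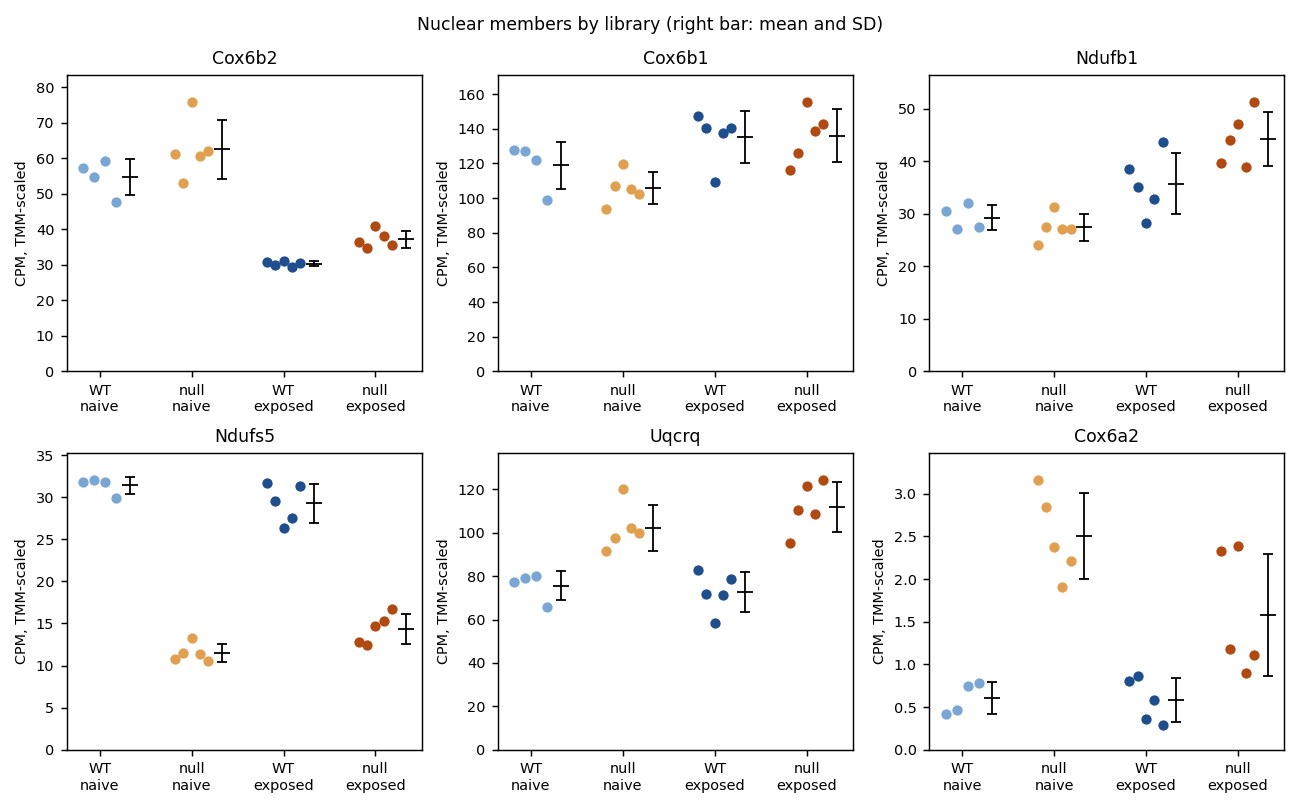
CPM on the TMM scale of 6 nuclear members in each library (points), with the mean and SD beside each group. Cox6b2 is lower in all exposed libraries, Ndufs5 is lower and Uqcrq and Cox6a2 are higher in all null than in all wild type libraries of the same exposure.

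Among the other nuclear genes of complex IV only Cox4i2, described below, was called in wild type mice. Relative to the whole library, the 20 nuclear complex IV genes summed to 4894 to 5592 TPM in naive and 4088 to 4536 TPM in exposed wild type libraries. The shares of all genes that rose and fell were 20.1% and 20.2% in wild type and 21.4% and 23.4% in null mice. Of 10 accessory subunits 0 were called in wild type mice, with a median of 0.09, and 6 rose and 0 fell in null mice, with a median of 0.28: Cox6b1, Cox6a1, Cox7a2, Cox7c, Cox8a and Cox4i1, by 0.27 to 0.36. With library totals these 6 values ran from -0.07 to 0.03. Cox6a1 stood at 167, 178, 193, 169 and 181 CPM in naive and at 200.1, 197, 259, 229 and 240.1 CPM in exposed null libraries, without overlap (SE 0.08, adjusted p = 0.0012). Cox7a2l, known as a supercomplex factor, fell in null mice by 0.23 (adjusted p = 0.016) with overlapping groups. Ndufa4, a subunit first assigned to complex I and now placed in complex IV, had values of 0.05 and 0.19 and was not called.

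Cox4i2 was called higher in wild type mice (log2 fold change 2.08, SE 0.64, adjusted p = 0.012) at very low levels. It stood at 0, 0.0924, 0.271 and 0.228 CPM in naive and 1.21, 0.623, 0.214, 0.581 and 0.670 CPM in exposed wild type libraries, which overlapped. With 1 naive library at 0 counts the fitted fold depends on the prior count. Cox5b-ps, annotated as protein-coding and a copy of Cox5b, rose in null mice by 0.54 (adjusted p = 0.037) at 2.99 to 4.76 CPM in naive and 2.99 to 7.79 CPM in exposed libraries, and reads of near-identical copies cannot be told apart.

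In complex V the catalytic subunit Atp5b rose in both genotypes relative to the typical gene, with values of -0.03 and -0.03 under library totals. It stood at 539, 582, 508 and 472 CPM in naive and at 671, 603, 781, 664 and 576 CPM in exposed wild type libraries (log2 fold change 0.33, SE 0.09, adjusted p = 0.0059). Exposed library 5 lay just under naive library 2. Null libraries stood at 604, 564, 486, 526 and 607 CPM and then at 687, 613, 748, 666 and 732 CPM, without overlap (log2 fold change 0.31, SE 0.08, adjusted p = 0.0052). Of the other F1 subunits, Atp5a1 rose by 0.14 (-0.20 with library totals) and Atp5c1 fell by 0.17 in null mice, and neither was called in wild type mice.

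The Fo part and stalk carry protons through the membrane and hold the head. Beside 20.1% and 20.2% of all genes in wild type and 21.4% and 23.4% in null mice, its 12 subunits had few calls. In wild type mice 0 rose and 1 fell, and in null mice 2 rose and 0 fell. The fall was that of Atp5g2, a gene for the ring subunit c, by 0.19 (adjusted p = 0.02). Atp5k, a small membrane subunit, stood at 24.4, 27.5, 30.7, 23.3 and 28.7 CPM in naive and 37.9, 38.3, 51.3, 44.1 and 45.1 CPM in exposed null libraries (log2 fold change 0.69, SE 0.12, adjusted p = 5.2e-05). Atp5md, another small membrane subunit, rose by 0.60 (SE 0.09, adjusted p = 1.8e-05) in null mice. The null groups did not overlap for either gene. In wild type mice Atp5k and Atp5md had values of 0.30 and 0.25 and were not called. Atp5g3, the most abundant gene for subunit c at 698 ± 29 TPM in naive wild type mice (SD, n = 4), had values of 0.10 and 0.08.

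Between the genotypes few members differed, and the part of the neutrophil markers, whose sum was higher in every null than in every wild type library, was not tested. In naive mice 2 of 83 nuclear genes were higher in null mice and 1 lower, beside 4.31% and 2.55% of all genes, and in exposed mice 3 were higher and 2 lower, beside 4.43% and 4.04%. The medians were -0.07 and 0.06. No mitochondrial gene was called in either state, with medians of 0.32 in naive and -0.28 in exposed mice and 1 and 3 of 13 unadjusted p under 0.05. DESeq2 called 0 in both states. Without exposed wild type library 3, 4 of 13 were called lower in exposed null mice.

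The difference with the smallest adjusted p was in Ndufs5, an accessory subunit of complex I in the intermembrane space (chromosome 4, 123606503 to 123611995 on GRCm39). It stood at 31.8, 32.1, 31.9 and 29.9 CPM in naive wild type and at 10.8, 11.5, 13.3, 11.3 and 10.6 CPM in naive null libraries (log2 fold change -1.45, SE 0.10, adjusted p = 7.8e-10). In exposed mice it stood at 31.7, 29.5, 26.4, 27.5 and 31.3 CPM in wild type and at 12.8, 12.5, 14.7, 15.3 and 16.7 CPM in null libraries (log2 fold change -1.03, SE 0.09, adjusted p = 7.8e-08). No null library reached the lowest wild type library. Ndufs5 made up 2.75 to 2.96% of summed nuclear complex I TPM in wild type and 1.08 to 1.51% in null libraries. The other 35 nuclear complex I genes had no call between the genotypes.

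The Ndufs5 upstream sequence is shown because this gene separated the lines. It is the 250 bases before the start on the minus strand of GRCm38.p6 (chr4:123718187-123718436, RefSeq), with the match to the NRF1 core in capitals, at positions -98 to -91 counted from the start site. The reference sequence is not that of the null line, which was not read here.
Ndufs5: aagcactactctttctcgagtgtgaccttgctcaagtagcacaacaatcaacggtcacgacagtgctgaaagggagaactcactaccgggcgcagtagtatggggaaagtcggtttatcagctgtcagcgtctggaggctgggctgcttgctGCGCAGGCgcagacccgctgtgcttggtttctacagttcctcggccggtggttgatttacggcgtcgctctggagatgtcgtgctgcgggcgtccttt

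Uqcrq, a small subunit of complex III (chromosome 11, 53318749 to 53321658), was higher in null mice. It stood at 77.4, 79.2, 80.2 and 65.8 CPM in naive wild type and 91.7, 97.7, 120.1, 102 and 100.1 CPM in naive null libraries (log2 fold change 0.44, SE 0.10, adjusted p = 0.008). In exposed mice it stood at 82.9, 72.0, 58.6, 71.1 and 78.7 CPM in wild type and 95.1, 110.4, 121, 109 and 124 CPM in null libraries (log2 fold change 0.63, SE 0.10, adjusted p = 0.00012). The genotypes did not overlap in either state. Lyrm7, an assembly factor that stabilises the Rieske protein before its insertion into complex III, lies on the same chromosome (54717692 to 54751742) and was also higher, at 0.508 to 1.92 CPM in naive wild type and 9.71 to 14.1 CPM in naive null libraries (log2 fold change 3.27, SE 0.31, adjusted p = 2.2e-07). In exposed mice its log2 difference was 3.17.

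Cox6a2, the heart and skeletal muscle form of subunit 6A, was higher in null mice at low levels. It stood at 0.420, 0.462, 0.751 and 0.783 CPM in naive wild type and 3.16, 2.85, 2.38, 1.91 and 2.21 CPM in naive null libraries (log2 fold change 2.03, SE 0.37, adjusted p = 0.00093). The genotypes did not overlap, nor did they in exposed mice (log2 fold change 1.43, SE 0.34, adjusted p = 0.0092). The gene lies wholly inside Itgad, an integrin gene on the opposite strand, and no source used here gives the strand setting of the counting. Itgad itself stood at 13.4 to 17.7 CPM in naive wild type and 37.4 to 62.4 CPM in naive null libraries, and at 12.1 to 21.2 and 33.1 to 63.8 CPM in exposed ones, so reads of the pair cannot be told apart. Markers of striated muscle summed to 4.77 to 10.8 TPM in naive wild type and 8.58 to 11.4 TPM in naive null libraries, and to 4.91 to 8.87 and 17.9 to 29.8 TPM in exposed ones; their part in the difference was not tested.

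In exposed mice Sdhd was lower (log2 fold change -0.28, SE 0.07, adjusted p = 0.011) and Cox6b2 higher (0.29, SE 0.08, adjusted p = 0.03) in null than in wild type mice. Sdhd stood at 74.9, 74.1, 74.0, 73.6 and 81.5 CPM in wild type and 60.9, 53.7, 73.7, 63.6 and 58.9 CPM in null libraries, which overlapped through null library 3. The Cox6b2 values given above did not overlap between exposed genotypes. With the epithelial and red cell markers as covariates 0 members were higher and 1 was lower in exposed null mice. The 4 comparisons share their groups pairwise, so the values of one are not independent of the next.

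The complexes are built by assembly factors, which are not subunits themselves. Of all genes 20.1% rose and 20.2% fell in wild type and 21.4% and 23.4% in null mice. Of 15 complex I assembly factors 0 rose and 6 fell in wild type and 1 rose and 4 fell in null mice, with medians of -0.27 and -0.20. For complexes II and III the counts of 12 were 1 and 5 and 1 and 4 (medians -0.34 and -0.34), for complex IV of 22 they were 1 and 9 and 2 and 8 (-0.28 and -0.15), and for complex V of 4 they were 0 and 2 and 0 and 4 (-0.28 and -0.41). Whether these counts differ from those of the subunits or of all genes was not tested. Tmem126b, a factor of the complex I membrane arm, stood at 24.9 to 26.9 CPM in naive and 9.72 to 11.6 CPM in exposed wild type libraries (log2 fold change -1.27, SE 0.10, adjusted p = 2.8e-09), and fell by 1.52 in null mice. Coa4 and Cox15, of complex IV assembly and heme A synthesis, fell by 1.29 and 0.66 in wild type and by 1.40 and 0.78 in null mice. Uqcc3, an assembly factor of complex III, fell by 1.04 and 0.66, while Ttc19 of the same complex rose by 0.55 and 0.68.

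Of 26 genes of mitochondrial DNA replication and transcription, 3 rose and 14 fell in wild type and 5 rose and 15 fell in null mice, with medians of -0.47 and -0.49. The other 9 and 6 were not called, and 10 and 8 of the 26 had values above 0. These counts too were not tested against all genes. Tfam, which packages mitochondrial DNA and starts its transcription, fell by 0.68 (SE 0.08, adjusted p = 1.1e-06) and by 0.83. Polg2, a subunit of the mitochondrial DNA polymerase, fell by 1.42 and 1.53, and the helicase gene Twnk by 1.09 and 1.38. Of 78 mitochondrial ribosomal protein genes 3 rose and 22 fell in wild type and 9 rose and 16 fell in null mice (medians -0.13 and -0.11), whereas of 85 cytosolic ones 19 rose and 1 fell and 69 rose and 0 fell (medians 0.13 and 0.30 relative to the typical gene). Relative to the whole library the picture differed. A wider set of 96 genes with Rpl or Rps symbols was summed in TPM. It came to 74643 to 88375 in naive and 68534 to 73139 in exposed wild type libraries, without overlap. Null libraries had 71046 to 80969 and then 65637 to 78370, with overlap.

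Regulators of these genes moved in both directions, 3 up and 4 down of 10 in each genotype. Gabpb1, a subunit of the factor GABP, rose by 1.26 and 1.10, and the coactivator Pprc1 by 1.05 and 1.12. Ppargc1b, another coactivator of mitochondrial genes, fell by 1.52 and 1.42. Among 17 electron carriers and coenzyme Q genes 3 rose and 5 fell in wild type and 2 rose and 5 fell in null mice. Coq10b, a coenzyme Q binding protein, stood at 26.9 to 34.3 CPM in naive and 90.4 to 123 CPM in exposed wild type libraries (log2 fold change 1.78, SE 0.10, adjusted p = 6.7e-12) and rose by 1.94 in null mice. Cytochrome c, Cycs, rose by 0.43 and 0.51, and Coq9 of coenzyme Q synthesis fell by 0.66 and 0.82.

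The neighbours of the chain in metabolism were mixed. Of 14 genes of the TCA cycle 5 rose and 1 fell in wild type and 6 rose and 1 fell in null mice (medians 0.13 and 0.11, or -0.23 and -0.23 with library totals), among them Dld, the lipoamide dehydrogenase, by 0.43 and 0.47. Of 8 genes of ATP exchange and uncoupling 2 rose and 3 fell in wild type and 2 rose and 2 fell in null mice. Ucp3, an inner membrane carrier, fell by 2.11 and 2.54. AA467197, the mouse NMES1 gene, whose product is related to Ndufa4, rose by 1.95 (SE 0.24, adjusted p = 9.1e-07) and by 1.46. Atpif1, the inhibitor of ATP synthase, had values of -0.12 and -0.02 and was not called.

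**Figure D5:**
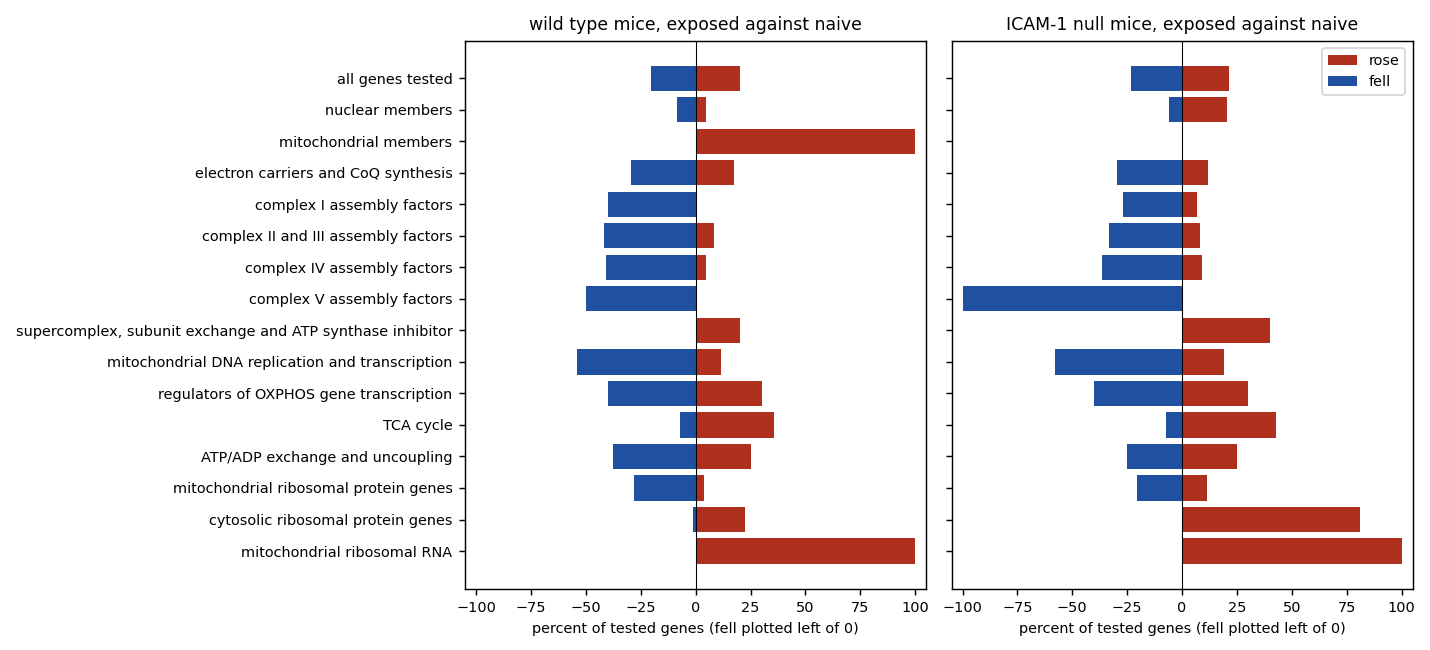
Percent of tested genes that rose (right of 0) or fell (left of 0) after exposure, for all genes, the members and related gene lists, in wild type (left) and null mice (right). All 13 mitochondrial members rose in wild type mice and none was called in null mice; of 26 genes of mitochondrial DNA replication and transcription, 14 fell in wild type and 15 in null mice.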

How the data were processed

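Gene tables of 19 lavage libraries were used. The deposited estimated counts, whole numbers not scaled for depth, and the deposited TPM values are the authors' own; the submitters' processing notes name STAR, StringTie 2 and GRCm39 without giving their roles. No source used here gives options or the strand setting. Per the labels' protocols, libraries were poly(A) selected.

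The tool was edgeR 4.0.16 (R 4.3.3) on the estimated counts: quasi-likelihood F test, two-sided, all 19 libraries in 1 model with 15 residual degrees of freedom, TMM scaling, filterByExpr (minimum count 10, total 15), Benjamini-Hochberg adjustment over 20501 genes, threshold 0.05. Contrasts were the exposure effect within each genotype, the genotype effect within each state, and their interaction. The method was tested on simulated data. Alternatives used limma 3.58.1, DESeq2 1.42.0, other scalings, filters and sets of libraries. CPM per library was computed from the deposited counts with TMM factors.

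The labels number the mice but do not say that they are separate litters or days, so p-values measure the spread between these samples. Pairs of libraries of a group were compared on counts divided by 4, over genes above a minimum count. Each pair differed with a chi-square of at least 3.7 per gene, and each library was counted once.

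Members and lists were chosen with earlier results of these data known. Named were all mitochondrial members, the 5 nuclear members with the largest rise and the 5 with the largest fall called in each comparison, in each role the member with the smallest adjusted p in an exposure and the one with the highest TPM, the tissue isoforms, Ndufa4, Ndufa4l2 and Atpif1, and the 3 genes of each other list with the smallest adjusted p, with AA467197; not all of these are printed. Others named (Ndufa8, Atp5g2, Ndufb6, Ndufa2, Uqcrh, Cox7a2, Cox7c, Cox8a, Atp5a1, Ttc19, Uqcc3, Twnk and the neighbours Itgad and Cpsf2) complete a count or a pair and were chosen after their values were seen.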

Additional observations from a re-analysis of the deposited data

Results flagged for a closer look

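Over all members and both sums, 387 sets of a gene and a group were examined for a library whose gap to the nearest other library of its group was large for the range of the group, and 12 were marked. Chance marks about 1 in 20, and members share libraries, so the sets are not independent.

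Atp5g1, a gene for subunit c of ATP synthase, was marked in 3 groups, each time through the library numbered 5. The naive wild type group has no library of that number. It stood at 122.5 TPM there in naive null mice against 59.0 to 73.1 TPM in the other 4 libraries, at 109.5 TPM against 53.8 to 70.0 TPM in exposed wild type mice and at 97.5 TPM against 59.6 to 66.8 TPM in exposed null mice.

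Ndufs3, a core subunit of complex I, was also marked in 3 groups: 106.6 TPM in naive wild type library 3 (93.2 to 95.2 TPM in the others), 103.6 TPM in naive null library 1 (91.6 to 94.9 TPM) and 83.6 TPM in exposed null library 3 (64.9 to 70.0 TPM). Naive null library 3 was highest for Ndufb7 at 153.2 TPM (134.5 to 138.9 TPM) and for Cox8a at 573.2 TPM (472.9 to 491.9 TPM). Naive wild type library 4, the deepest of its group, was lowest for Uqcr11 at 154.4 TPM (205.0 to 210.2 TPM) and for Ndufs8 at 82.1 TPM (94.6 to 97.1 TPM). Sdhc was lowest in exposed null library 1 at 52.2 TPM (55.9 to 57.4 TPM), and Atp5j in exposed wild type library 5 at 193.5 TPM (215.9 to 224.4 TPM). None of the marked values was in a mitochondrial gene or in either sum.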

How the results depend on the processing

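Counts are of members called, rising then falling unless said. In wild type mice after exposure (4 and 7 nuclear, 13 and 0 mitochondrial), library totals gave 1 and 68 nuclear and 5 mitochondrial, limma on log2(TPM + 1) 1 and 68 and 1, limma on log2(TPM + 0.1) 1 and 67 and 1, marker covariates 1 and 1 and 0, and the fit without the 3 shallowest naive libraries 2 and 1 and 0. DESeq2, the stricter filter and counts divided by 4 (chosen after seeing the data) each gave 7 nuclear rises. In null mice (17 and 5 nuclear, 0 and 0 mitochondrial), library totals gave 3 and 42, TPM + 1 gave 2 and 49, TPM + 0.1 gave 2 and 48, covariates 11 and 2, the stricter filter 30 and 3 with 1 mitochondrial rise, size factors 3 falls, and the groups compared alone 1 mitochondrial rise. Between naive genotypes (2 higher, 1 lower), 4 were lower with library totals, the stricter filter, DESeq2 and the groups compared alone, 8 and 6 with TPM + 1 and TPM + 0.1, and 2 with counts divided by 4, the groups alone gave 2 mitochondrial genes higher, and without the shallowest libraries 0 nuclear genes were higher. Between exposed genotypes (3 higher, 2 lower), the groups alone gave 1 lower and covariates 0 higher and 1 lower. The interaction had 1 nuclear call with TPM + 1.

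Leaving out 1 library at a time gave 3 to 9 rises and 5 to 9 falls of nuclear genes in wild type (9 without exposed replicate 3), 13 to 26 and 3 to 8 in null mice (26 without exposed replicate 1, 8 without exposed replicate 3, 3 without naive replicate 1, exposed replicate 2 or exposed replicate 5), 1 to 2 lower nuclear genes between naive genotypes (2 without null naive replicate 3) and 0 to 4 lower mitochondrial genes between exposed genotypes. The mitochondrial rises in wild type numbered 11 to 13. The cause of these changes was not tested.

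The replicate number as a block gave 2 nuclear genes lower between naive genotypes, and no other count moved by over 1.5 times. Libraries with the same number had correlations of deviations from -0.049 to 0.069 over 27 pairs, 0 of them over 0.1, so the numbers were not taken to pair the mice. Atp5g1, described above, was nevertheless high in every library numbered 5, and the cause was not tested.

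Some values changed sign. Wild type Atp5b, Ndufb1 and Uqcrfs1 became -0.033, -0.0754 and -0.0343 with library totals, -0.0465, -0.0858 and -0.0462 with TPM + 1 and -0.0465, -0.0868 and -0.0465 with TPM + 0.1. With covariates, wild type mt-Atp6, mt-Atp8, mt-Co1, mt-Nd1, mt-Nd3, mt-Nd4, mt-Nd4l, mt-Nd5 and mt-Nd6 became -0.13, -0.13, -0.0085, -0.15, -0.18, -0.0528, -0.20, -0.0837 and -0.0586. In null mice, where none was called, mt-Atp6, mt-Atp8, mt-Co1, mt-Co3, mt-Cytb, mt-Nd1, mt-Nd2, mt-Nd3, mt-Nd4, mt-Nd5 and mt-Nd6 in that order became -0.21, -0.28, -0.0705, -0.25, -0.0802, -0.17, -0.13, -0.12, -0.24, -0.21 and -0.0828 with library totals, -0.22, -0.30, -0.0946, -0.28, -0.0989, -0.18, -0.14, -0.15, -0.26, -0.24 and -0.11 with TPM + 1, -0.22, -0.30, -0.0946, -0.28, -0.0989, -0.18, -0.14, -0.15, -0.26, -0.24 and -0.11 with TPM + 0.1 and -0.13, -0.21, -0.0033, -0.15, -0.0449, -0.10, -0.0759, -0.0981, -0.24, -0.22 and -0.11 with covariates. Leaving out 1 library gave null values of -0.0404 to 0.14 for mt-Atp8, -0.0174 to 0.14 for mt-Co3, -0.02 to 0.16 for mt-Nd4 and -0.15 to 0.0994 for mt-Nd4l. The stricter filter gave 0.0171 for null mt-Nd4l.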
